A study of Mus musculus with 9 samples.

Results

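Kinesins are the motor proteins that walk on, slide or take apart microtubules. Centromere proteins build the platform on which microtubules grip a chromosome, and mitotic kinases time the steps of cell division. The genes described here are every row of the expression table named Kif with a number, every row named Cenp with 1 letter, and 10 further genes: Plk1, Plk2, Plk3, Plk4, Aurka, Aurkb, Bub1, Bub1b, Mki67 and Top2a. The names gave 65 genes of 24421 in the table, of which 37 were kinesins and 18 were centromere proteins. They were read in 3 populations of mouse colon epithelium sorted by surface antigens, with 3 RNA-seq libraries each. All animals were adult C57BL/6J mice labelled female, with no altered allele and no treatment named, and the series text states that each replicate of a population came from another mouse. Cells stained as dead and cells with Cd3, Cd16/32, Cd31 or Cd45 were gated out of all populations. Lgr5-enriched cells, from the bottom of the crypt, were positive for Epcam and Cd44 and negative for Kit. The goblet-enriched cells, of the crypt bottom too, carried Epcam, Cd44 and Kit. Enterocyte-enriched cells, from the crypt top, carried Epcam and high Cd66a and lacked Cd44. Each population is an enrichment by antigens and may hold other epithelial cells.

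Depth was 11.2 to 26.8 M reads in genes per library (M stands for 1000000). A single read counted for 0.0958 to 0.208 TPM in a 1 kb gene, where TPM, transcripts per 1000000, is a level per transcript length with the same total in each library. The sorted populations carried the markers of their labels: summed stem cell markers reached 899 to 1080.0 TPM in the Lgr5-enriched libraries, summed goblet markers 46060.0 to 62800.0 TPM in the goblet-enriched ones, and summed colonocyte markers 5264 to 8962 TPM in the enterocyte-enriched ones. Goblet markers were also present outside the Kit-positive gate, with 14610.0 to 22890.0 TPM in the enterocyte-enriched libraries. Stem cell markers likewise summed to 344 to 524 TPM in the goblet-enriched and 104 to 180 TPM in the enterocyte-enriched libraries. Enterocyte-enriched replicate 1 went against its label: Xist, a transcript of female cells, stood at 0.128 TPM there and at 110.0 to 204 TPM in the other 8 libraries. Lgr5-enriched replicate 1 held 49050 TPM of the pre-ribosomal transcript Rn45s, against 2356 to 6009 TPM elsewhere. Member calls that ended without one of these libraries, where it belongs to the comparison, are given with and without it. In sorted bulk RNA, fewer dividing cells and less of a transcript in each cell cannot be told apart.

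In the colon, cells divide in the lower crypt and stop as they move up to the surface. A dividing cell raises a large set of mitotic transcripts late in its cycle: the kinesins that separate the spindle poles, line up the chromosomes and cut the cells apart, the kinetochore proteins, and the kinases Plk1, Aurora and Bub1. Other kinesins are known mainly for work outside division. They carry vesicles, mitochondria and membrane proteins along the microtubules of resting cells, or work in cilia.

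The members were grouped by these roles. Cell division took 35 genes, transport and ciliary kinesins took 21, and 9 genes fitted neither. A gene was tested where it reached 1 TPM in at least 3 libraries, which 55 of the 65 members did. Differences are log2 fold changes of TPM + 1 from limma, and a gene was called to differ where its p, adjusted by the Benjamini-Hochberg method over all 12888 genes tested, was below 0.05. Values after ± are the SD over 3 libraries in TPM. P-values measure the spread between libraries. The 3 comparisons share their libraries in pairs and are not independent of each other.

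The cell division genes were lowest in the enterocyte-enriched cells. All 34 tested were lower in enterocyte-enriched than in Lgr5-enriched cells by limma, with a median log2 fold change of -2.03, where 37.6% of all genes were called lower and the median gene stood at -0.35. All 34 also had every enterocyte-enriched library below every Lgr5-enriched library. How many of all genes were separated in this way was not counted. In goblet-enriched against Lgr5-enriched cells 18 of the 34 were called lower (23.6% of all genes) and 1, Plk1, was called higher (10.7% of all genes). The median was -0.80 among the 34 and -0.26 among all genes. In goblet-enriched against enterocyte-enriched cells 31 of the 34 were called higher and none lower, where 28.2% of all genes were called higher, with a median of 1.26 against 0.20. The exceptions were Cenpt, Cenpm and Top2a, each with an adjusted p above the threshold (limma p 0.936, 0.317 and 0.0813). With replicate number as a block Top2a was called as well (limma adjusted p = 0.00154), and 32 of the 34 were higher (4683 of all 12888 genes). No division gene was higher at the crypt top than in Lgr5-enriched cells, or lower in goblet-enriched than in enterocyte-enriched cells, at an unadjusted limma p below 0.05 (0 in each) or by limma-voom on recovered reads (0 in each). The goblet-enriched population thus lay between the others for 33 of the 34 genes by fitted direction.

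**Figure D1:**
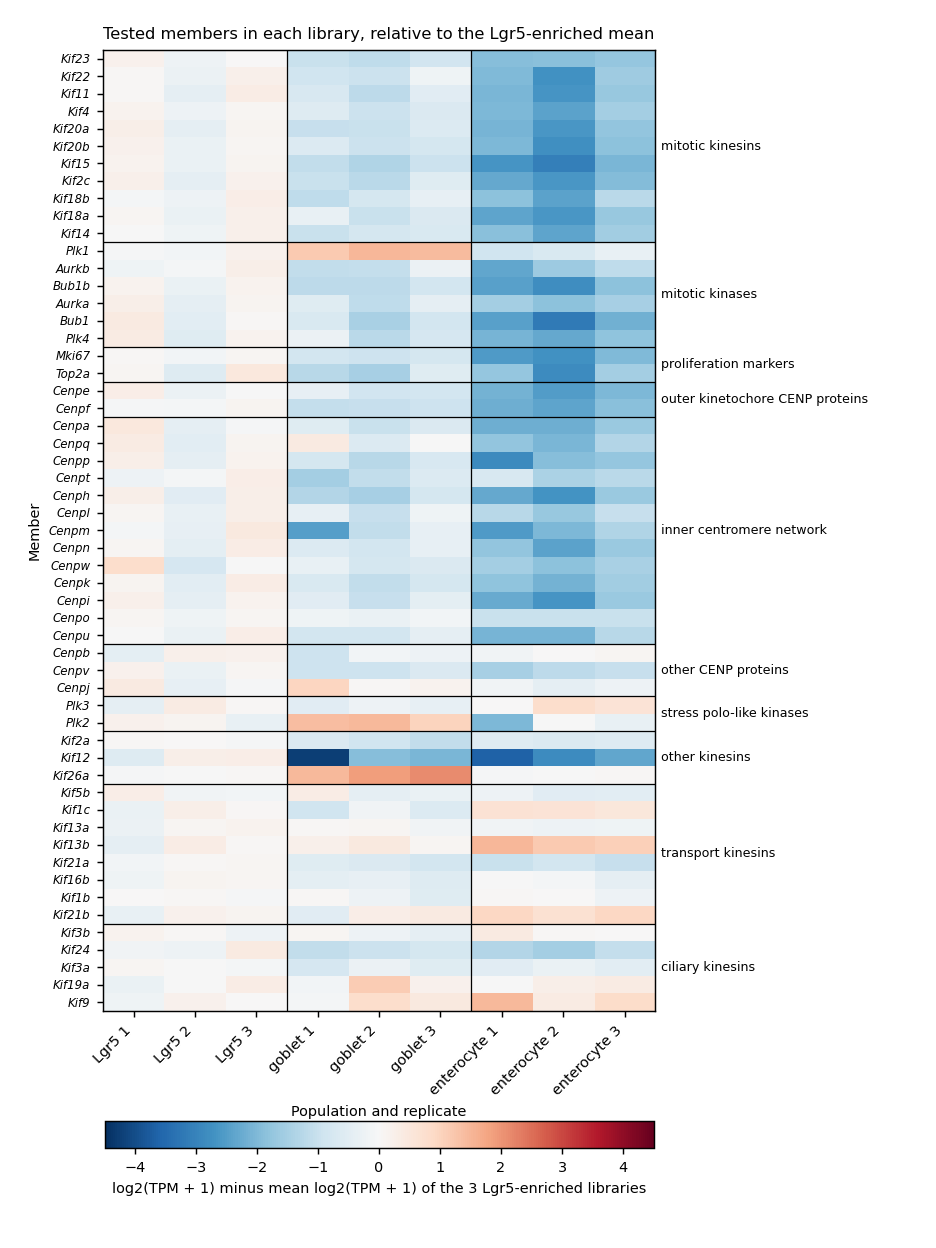
Heat map of the 55 tested members (rows, grouped by role) in the 9 libraries (columns, by population and replicate). Color is log2(TPM + 1) minus the mean log2(TPM + 1) of the 3 Lgr5-enriched libraries. Rows of cell division genes are blue in the enterocyte-enriched columns and paler blue in the goblet-enriched ones, apart from Plk1, while rows of transport kinesins are mostly pale.

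The step from Lgr5-enriched to goblet-enriched cells was the least certain of these. With replicate number as a block, 30 of the 34 were called lower in goblet-enriched cells (4563 of all 12888 genes). With median-of-ratios scaling 7 were (1549 of all 12888 genes). The count fell to 6 without Lgr5-enriched replicate 1, to 5 without Lgr5-enriched replicate 3 and to 6 without goblet-enriched replicate 2. In the same order 2823 of 12776, 1557 of 12757 and 2071 of 12750 of all genes were called lower, shares near those of the division genes. The calls that ended without Lgr5-enriched replicate 1 were those of Kif14, Kif20a, Kif20b, Kif2c and Kif4 (limma adjusted p = 0.0504, 0.071, 0.0935, 0.0627 and 0.0857 without it), of Aurka and Bub1 (0.13 and 0.119) and of Cenpa, Cenpe, Cenph, Cenpk and Cenpp (0.117, 0.0978, 0.0545, 0.0705 and 0.114). Cenpf, Kif23 and Mki67 were the 3 genes called lower under every one of 20 alternative settings. Without enterocyte-enriched replicate 1, all 34 were still lower in enterocyte-enriched than in Lgr5-enriched cells (4029 of all 12782 genes). In goblet-enriched against enterocyte-enriched cells 26 rather than 31 were then higher (2807 of all 12782 genes). The 5 calls that ended were those of Aurkb, Cenph, Cenpl, Cenpw and Kif18b (limma adjusted p = 0.148, 0.0791, 0.0721, 0.0751 and 0.0607 without that library).

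Mki67, whose protein coats mitotic chromosomes and is the common marker of cycling cells, lies at chr7:135689784-135716361 (minus strand; this and all positions are in mm10, also called GRCm38). It stood at 221, 195 and 226 TPM in Lgr5-enriched replicates 1 to 3, at 121, 112 and 124 TPM in the goblet-enriched and at 35.3, 31.7 and 52.9 TPM in the enterocyte-enriched. The 3 populations did not overlap. Mki67 was 1.8-fold lower in goblet-enriched than in Lgr5-enriched cells (limma adjusted p = 0.00739, log2 fold change -0.84, SE 0.18) and 5.35-fold lower in enterocyte-enriched cells (limma adjusted p = 7.36e-05, log2 fold change -2.42, SE 0.18). Top2a, the topoisomerase that untangles sister chromosomes, varied more between libraries: 148, 94.2 and 198 TPM in Lgr5-enriched, 59, 48.7 and 96.4 TPM in goblet-enriched and 41.6, 18.7 and 47.5 TPM in enterocyte-enriched replicates 1 to 3. Its Lgr5-enriched replicate 2 lay below goblet-enriched replicate 3. The log2 fold change of Top2a between goblet-enriched and Lgr5-enriched cells was -1.09 with a limma adjusted p of 0.0599, and the p was 0.00112 with replicate number as a block. In all 3 populations replicate 2 held the least Top2a.

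Among the mitotic kinesins, all 11 tested genes were called lower in enterocyte-enriched than in Lgr5-enriched cells (37.6% of all genes). All 11 were called higher in goblet-enriched than in enterocyte-enriched cells (28.2% of all genes). Their summed level was 467, 342 and 476 TPM in Lgr5-enriched replicates 1 to 3, 228, 197 and 274 TPM in the goblet-enriched and 92.8, 67.3 and 122 TPM in the enterocyte-enriched. The sums did not overlap between populations. The means were 428 ± 74.7, 233 ± 38.9 and 94.1 ± 27.4 TPM. Between goblet-enriched and Lgr5-enriched cells 7 of the 11 were called lower (23.6% of all genes). With the replicate block all 11 were (4563 of all 12888 genes). Without Lgr5-enriched replicate 1 the count was 2 of 11, a share near that of all genes (2823 of 12776).

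Kif11, the motor that slides spindle microtubules apart and so makes the spindle bipolar (chr19:37376403-37421859, plus strand), stood at 60.2, 43.4 and 71.9 TPM in Lgr5-enriched replicates 1 to 3. It stood at 34.2, 24.7 and 39.7 TPM in goblet-enriched and 13.2, 8.33 and 16.8 TPM in enterocyte-enriched replicates 1 to 3. Replicate 2 was the lowest in every population, and the populations did not overlap. Kif11 was 4.58-fold lower in enterocyte-enriched than in Lgr5-enriched cells (limma adjusted p = 0.000468, log2 fold change -2.13, SE 0.28). Against Lgr5-enriched cells the goblet-enriched value missed the threshold (log2 fold change -0.81, limma adjusted p = 0.0522, and 0.00072 with the replicate block). Kif15, which supports Kif11 in holding spindle poles apart, had the steepest decline of the class: 41.2, 29.4 and 40.2 TPM in Lgr5-enriched, 16.3, 13.7 and 18.1 TPM in goblet-enriched and 4.96, 3.4 and 8.09 TPM in enterocyte-enriched replicates 1 to 3. Its Lgr5-enriched mean was 2.31 times the goblet-enriched mean (limma adjusted p = 0.0103, and 0.0567 without replicate 1 of every population) and 6.73 times the enterocyte-enriched mean (limma adjusted p = 0.000206).

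Kif23, a subunit of the centralspindlin complex that organizes the midbody, declined less than Kif15 toward the crypt top. It stood at 89.5, 66.3 and 78.1 TPM in Lgr5-enriched, 37.9, 34.5 and 42 TPM in goblet-enriched and 19.8, 20.4 and 22.4 TPM in enterocyte-enriched replicates 1 to 3. The replicates lay close together, most of all at the crypt top, and the populations did not overlap. Kif23 was 2.04-fold lower in goblet-enriched cells (limma adjusted p = 0.00104, log2 fold change -1.01, SE 0.14) and 3.73-fold lower in enterocyte-enriched cells (log2 fold change -1.84, limma adjusted p = 9.81e-05) than in Lgr5-enriched cells. The other kinesins of late division behaved alike in direction. Kif20a, which brings Aurora B to the central spindle, stood at 38.9 ± 8.77 TPM in Lgr5-enriched, 20.5 ± 3.54 TPM in goblet-enriched and 8.06 ± 2.54 TPM in enterocyte-enriched cells. Kif20b, a motor of cytokinesis, stood at 35.5 ± 6.31, 19.9 ± 2.63 and 7.1 ± 2.44 TPM. Kif14, which acts at the cleavage furrow and midbody, was the lowest of the 11 tested at 9.09 ± 1.5, 4.68 ± 0.595 and 1.68 ± 0.732 TPM. All 3 were called lower in goblet-enriched than in Lgr5-enriched cells (limma adjusted p = 0.0254, 0.0363 and 0.0261), but each of these calls was lost under 7 or 8 of the 20 alternatives.

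The chromosome-arm motors Kif22 and Kif4 stood at 59.3 ± 10.4 and 39.2 ± 5.48 TPM in Lgr5-enriched cells. In goblet-enriched cells they were at 37.3 ± 11.8 and 23.1 ± 3.29 TPM, and in enterocyte-enriched cells at 13.7 ± 5.39 and 9.34 ± 3.14 TPM. Kif22 was not called between the crypt-bottom populations (limma adjusted p = 0.113, and 0.00946 with the replicate block) and Kif4 was (0.0345 by limma). The kinesins that shorten microtubules at kinetochores and spindle poles, Kif2c, Kif18a and Kif18b, stood at 33.3 ± 7.93, 15.8 ± 3.06 and 23.9 ± 4.56 TPM in Lgr5-enriched cells. They were at 17 ± 4.39, 9.61 ± 2.36 and 13.8 ± 3.97 TPM in goblet-enriched cells and at 6.05 ± 1.62, 2.66 ± 1.22 and 6.37 ± 3.05 TPM in enterocyte-enriched cells. Of these, Kif2c was called lower in goblet-enriched than in Lgr5-enriched cells (limma adjusted p = 0.0223). Kif18a and Kif18b missed the threshold (0.0882 and 0.0853 by limma) and passed it with the replicate block (0.0212 and 0.0139). Kif2b, another kinesin of this kind, was at 0 in all 9 libraries. Kif2a, also a microtubule-shortening kinesin of spindle poles, was placed in neither set and is given below. The counts of 11 mitotic kinesins therefore leave it out, and its pattern differed from theirs. Its goblet-enriched libraries (19.7 to 27.5 TPM) lay below its enterocyte-enriched ones (27.6 to 29.1 TPM), with no call between these populations.

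Plk1 was the exception among the division genes. Polo-like kinase 1 drives entry into mitosis, spindle assembly and cytokinesis, and its gene lies at chr7:122159439-122169873 on the plus strand. It stood at 124, 119 and 148 TPM in Lgr5-enriched replicates 1 to 3, at 292, 371 and 352 TPM in goblet-enriched and at 69.7, 80.8 and 102 TPM in enterocyte-enriched replicates. Every goblet-enriched library was above every other library. Plk1 was 2.6-fold higher in goblet-enriched than in Lgr5-enriched cells (log2 fold change 1.37 with an SE of 0.17, limma adjusted p = 0.000464, and 2.52e-05 to 0.00307 over the 20 alternatives). It was 4.01-fold higher than in enterocyte-enriched cells (limma adjusted p = 5.61e-05, log2 fold change 2.00, SE 0.17). At the crypt top Plk1 was 1.54-fold lower than in Lgr5-enriched cells, the smallest decline of the 34 division genes there (log2 fold change -0.63, limma adjusted p = 0.0122). That call was lost with median-of-ratios scaling (0.236) and without Lgr5-enriched replicate 3 (0.0522).

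Across the 34 tested division genes, the ratio of the goblet-enriched mean to the Lgr5-enriched mean ran from 0.409 for Cenph to 0.958 for Cenpq, with a median of 0.567, and then stood at 2.6 for Plk1. The ratio of Plk1 to Mki67 inside each library does not depend on how libraries are scaled. It was 0.56, 0.611 and 0.655 in Lgr5-enriched replicates 1 to 3, 2.4, 3.3 and 2.85 in goblet-enriched replicates and 1.98, 2.55 and 1.94 in enterocyte-enriched replicates. The Lgr5-enriched ratios all lay below 1 and the other 6 all lay above it. On the log2 scale the mean ratio was -0.72 ± 0.11 in Lgr5-enriched, 1.50 ± 0.23 in goblet-enriched and 1.10 ± 0.22 in enterocyte-enriched cells. The ratio was chosen because Plk1 stood apart, so these values are a description with no test. An exact permutation test of 3 against 3 libraries cannot give a p below 0.1.

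**Figure D2:**
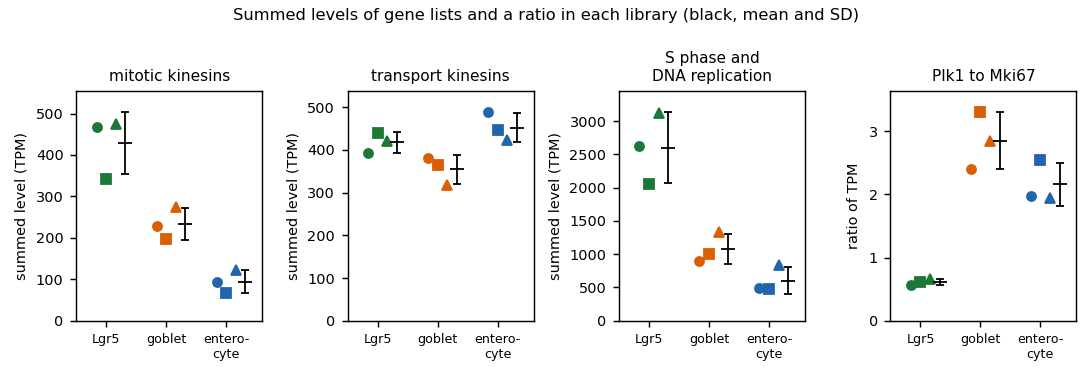
Summed TPM of the mitotic kinesins, the transport kinesins and the S phase genes, and the ratio of Plk1 to Mki67, in each of the 9 libraries (circle, square and triangle for replicates 1, 2 and 3; black, mean and SD of a population). Mitotic kinesins and S phase genes step down from Lgr5-enriched to goblet-enriched to enterocyte-enriched libraries, transport kinesins are lowest in the goblet-enriched libraries, and the ratio is below 1 only in the 3 Lgr5-enriched libraries.

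The other mitotic kinases declined with the rest of the machinery. All 6 kinases, Plk1 included, were called lower in enterocyte-enriched than in Lgr5-enriched cells (37.6% of all genes). Bub1b, the checkpoint protein BubR1 that holds back anaphase, stood at 66.8, 48.6 and 66.7 TPM in Lgr5-enriched, 26.2, 26.3 and 33.5 TPM in goblet-enriched and 10.2, 7.82 and 16 TPM in enterocyte-enriched replicates 1 to 3, with no overlap. It was 2.12-fold lower in goblet-enriched than in Lgr5-enriched cells (limma adjusted p = 0.0109, log2 fold change -1.05, SE 0.24). Bub1, its partner kinase at kinetochores, stood at 29.2 ± 8.88 TPM in Lgr5-enriched, 14.2 ± 3.91 TPM in goblet-enriched and 4.09 ± 1.68 TPM in enterocyte-enriched cells, a 7.15-fold difference between the first and the last (limma adjusted p = 0.000393).

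Aurka, the Aurora kinase of spindle poles, stood at 60.9, 37.8 and 54.8 TPM in Lgr5-enriched, 33.7, 22.1 and 37.8 TPM in goblet-enriched and 16.6, 13.1 and 17.3 TPM in enterocyte-enriched replicates 1 to 3. Goblet-enriched replicate 3 and Lgr5-enriched replicate 2 were level, so these populations overlapped. The limma adjusted p between them was 0.0491, and 15 of 20 alternatives ended that call. Aurkb, the Aurora kinase of the chromosomal passenger complex, stood at 74.6, 79.1 and 103, 38.7, 39.8 and 70.5 and 16.2, 26.5 and 37.4 TPM from Lgr5-enriched to goblet-enriched to enterocyte-enriched cells. No library of Aurkb overlapped, but the limma adjusted p between goblet-enriched and Lgr5-enriched cells was 0.0749, and 0.00479 with the replicate block. Plk4, which licenses the duplication of centrioles, stood at 25.1 ± 7.73, 14.6 ± 4.97 and 5.1 ± 1.11 TPM (limma adjusted p = 0.0814 for goblet-enriched and 0.000667 for enterocyte-enriched against Lgr5-enriched cells, the former 0.0109 with the replicate block).

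The centromere proteins divide into an inner network that stays on the centromere through the cell cycle and outer proteins that load for mitosis. The 2 outer proteins were called lower in both other populations than in Lgr5-enriched cells, Cenpf under all 20 alternatives and Cenpe with less certainty in goblet-enriched cells. Cenpf, a large protein of the outer kinetochore that peaks late in the cycle, stood at 23.7, 23.1 and 26.9 TPM in Lgr5-enriched, 11, 11.5 and 12.4 TPM in goblet-enriched and 4.49, 3.96 and 5.84 TPM in enterocyte-enriched replicates 1 to 3. The populations were far apart for their spread: the log2 fold change was -1.01 (SE 0.17, limma adjusted p = 0.00212) for goblet-enriched and -2.16 (SE 0.17, limma adjusted p = 9.24e-05) for enterocyte-enriched against Lgr5-enriched cells. Cenpe, itself a kinesin motor that carries chromosomes to the spindle equator, stood at 50.7, 34.3 and 41.2 TPM, 32.2, 22.4 and 22.8 TPM and 8.71, 6.4 and 9.48 TPM in the same order. Replicate 1 was the highest in both crypt-bottom populations, and Cenpe was 5.13-fold lower at the crypt top (limma adjusted p = 0.000187). In goblet-enriched against Lgr5-enriched cells the limma adjusted p of Cenpe was 0.0353. That call was lost under 7 of 20 alternatives, among them median-of-ratios scaling (0.175), quantile normalization (0.131) and leaving out Lgr5-enriched replicate 1 (0.0978).

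Of the 13 inner network genes, all were called lower in enterocyte-enriched than in Lgr5-enriched cells (37.6% of all genes). Of the 13, 11 were called higher in goblet-enriched than in enterocyte-enriched cells (28.2%), and 5 lower in goblet-enriched than in Lgr5-enriched cells (23.6%). The count of 5 was 1 without Lgr5-enriched replicate 1 and 10 with the replicate block, and the count of 11 was 8 without enterocyte-enriched replicate 1. Of all genes 2823 of 12776, 4563 of 12888 and 2807 of 12782 were called in these settings and directions. Cenpa, the histone H3 variant that marks the centromere, stood at 121, 65 and 82.7 TPM in Lgr5-enriched, 58.9, 42.5 and 54.8 TPM in goblet-enriched and 18.3, 18 and 26.6 TPM in enterocyte-enriched replicates 1 to 3. The libraries did not overlap. The decline to the crypt top was 4.27-fold (limma adjusted p = 0.000338), and the difference between the crypt-bottom populations was close to the threshold (0.0447 by limma, lost under 12 of 20 alternatives).

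Members of the inner network differed among themselves in goblet-enriched cells. Cenpq, of the subcomplex that also holds Cenpo, Cenpp and Cenpu, was level in the crypt-bottom populations: 34.9, 19.5 and 29.3 TPM in Lgr5-enriched and 36, 17.3 and 26.8 TPM in goblet-enriched replicates 1 to 3, against 7.21, 5.83 and 10.3 TPM in enterocyte-enriched replicates. Its log2 fold change between the crypt-bottom populations was -0.08 (SE 0.31, limma adjusted p = 0.861), while it was 3.44-fold higher in goblet-enriched than in enterocyte-enriched cells (0.00286). Replicate 1 was the highest and replicate 2 the lowest in both crypt-bottom populations. Cenpo was also close there, at 7.48 ± 0.887 TPM in Lgr5-enriched and 6.36 ± 0.386 TPM in goblet-enriched cells (limma adjusted p = 0.351), against 3.22 ± 0.016 TPM at the crypt top. Of the other subunits of this subcomplex, Cenpp stood at 32.8 ± 7.69, 16.7 ± 3.11 and 6.77 ± 2.84 TPM and Cenpu at 7.42 ± 1.76, 4.24 ± 0.949 and 1.45 ± 0.888 TPM in Lgr5-enriched, goblet-enriched and enterocyte-enriched cells. Between the crypt-bottom populations the limma adjusted p was 0.0456 for Cenpp, lost under 11 of 20 alternatives, and 0.0917 for Cenpu, or 0.0127 with the replicate block. The enterocyte-enriched mean of Cenpu was 0.934 TPM without replicate 3. Whether the 4 subunits differ from each other in their change was not tested.

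Cenpt, which links the centromere to the outer kinetochore, had the reverse shape. It stood at 22.2, 24.4 and 32 TPM in Lgr5-enriched, 8.24, 11.4 and 16.6 TPM in goblet-enriched and 15.2, 9.1 and 10.5 TPM in enterocyte-enriched replicates 1 to 3. Its goblet-enriched and enterocyte-enriched libraries overlapped and both lay below the Lgr5-enriched ones. The log2 fold change was -1.09 for goblet-enriched (limma adjusted p = 0.0147) and -1.12 for enterocyte-enriched against Lgr5-enriched cells (0.00813, but 0.0576 with median-of-ratios scaling and 0.0582 with quantile normalization), and 0.03 between the goblet-enriched and enterocyte-enriched cells (0.936). Its dimer partner Cenpw stood at 15.3 ± 8.51, 8.88 ± 1.59 and 3.89 ± 0.642 TPM in the order Lgr5-enriched, goblet-enriched and enterocyte-enriched.

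Cenph, Cenpi, Cenpk and Cenpm form another subcomplex of the network. Cenph stood at 27.4 ± 7.84 TPM in Lgr5-enriched, 11.2 ± 3.22 TPM in goblet-enriched and 5.18 ± 2.3 TPM in enterocyte-enriched cells, and Cenpk at 13.7 ± 3.94, 6.93 ± 1.18 and 3.03 ± 0.784 TPM. Both were called lower in goblet-enriched than in Lgr5-enriched cells (limma adjusted p = 0.0193 and 0.0285). The call of Cenph was lost under 5 of 20 alternatives and that of Cenpk under 8, both without Lgr5-enriched replicate 1 (0.0545 and 0.0705) and Cenpk with median-of-ratios scaling (0.0921). Cenpi stood at 13.3 ± 3.16, 7.99 ± 1.92 and 2.18 ± 1.11 TPM and missed that threshold (0.113 by limma, 0.0136 with the replicate block). Cenpm was the most scattered, at 19.4, 15.7 and 28.6 TPM in Lgr5-enriched, 2.9, 8.99 and 15.6 TPM in goblet-enriched and 2.66, 4.26 and 7.48 TPM in enterocyte-enriched replicates 1 to 3. It was not called between the crypt-bottom populations (limma adjusted p = 0.0725, and 0.00932 with the replicate block). Its goblet-enriched mean of 9.16 TPM fell to 5.95 TPM without replicate 3. Cenpn, which reads the Cenpa nucleosome, stood at 17.1 ± 4.72, 10.8 ± 1.85 and 3.65 ± 1.19 TPM and its partner Cenpl at 18.9 ± 4.02, 13 ± 4.01 and 6.94 ± 1.79 TPM. Neither was called between the crypt-bottom populations (0.115 and 0.168 by limma), and both were with the replicate block (0.00956 and 0.00884).

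**Figure D3:**
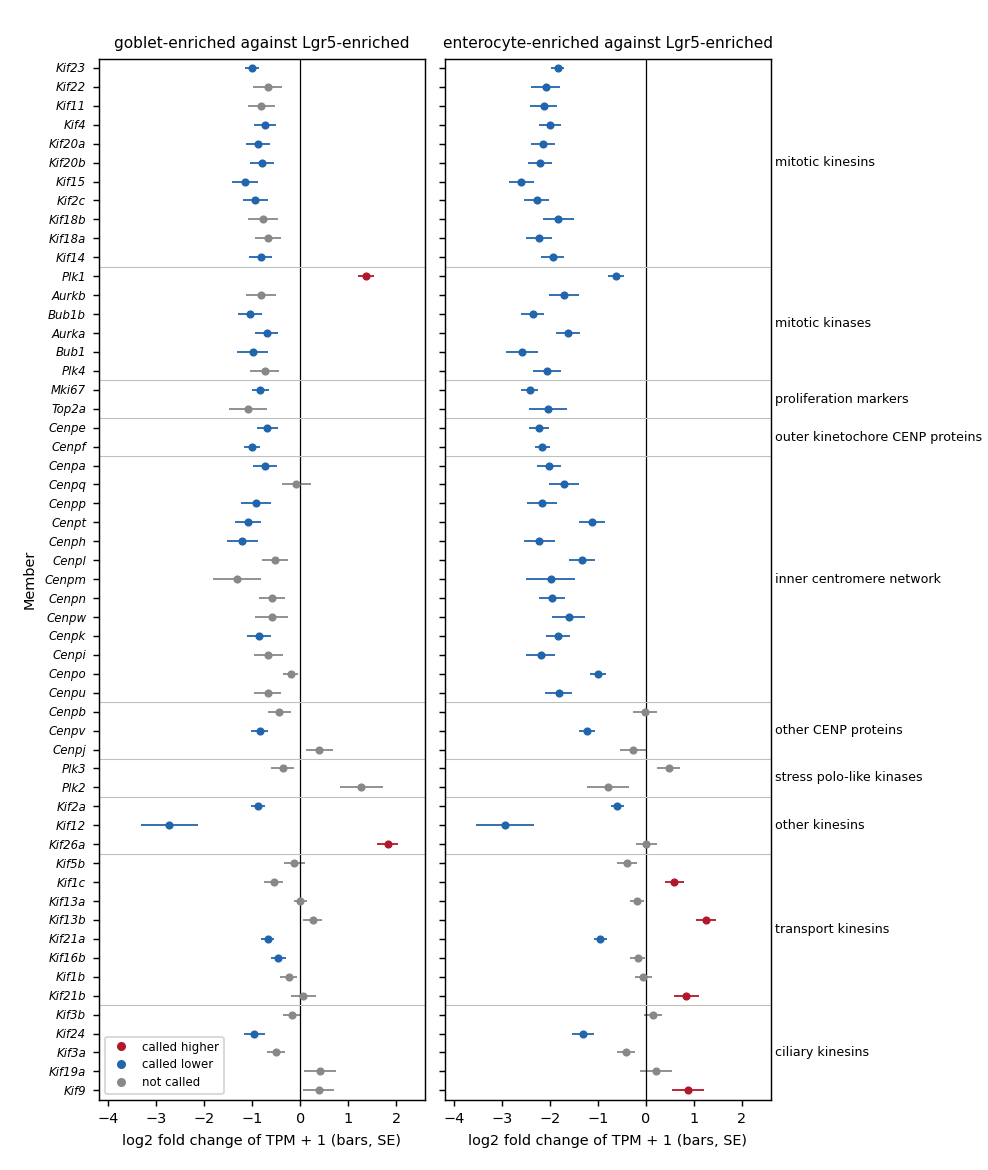
Log2 fold changes of TPM + 1 (points) with SE (bars) of the 55 tested members in goblet-enriched (left) and enterocyte-enriched (right) against Lgr5-enriched cells, red for called higher, blue for called lower and grey for not called by limma. On the right all division genes lie left of 0, and on the left Plk1 and Kif26a are the 2 called genes right of 0.

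Genes that work with these members, and that the naming rule does not reach, moved the same way. Of 29 kinetochore and spindle checkpoint partners, 29 were called lower in enterocyte-enriched and 14 in goblet-enriched than in Lgr5-enriched cells, with 0 higher in either (0 at an unadjusted p below 0.05 and 0 by limma-voom), and 23 were called higher in goblet-enriched than in enterocyte-enriched cells. Of all genes 37.6% and 23.6% were called lower in the first comparisons and 28.2% higher in the last. The count of 14 was 5 without Lgr5-enriched replicate 1 and 24 with the replicate block, and the count of 23 was 17 without enterocyte-enriched replicate 1. Of all genes 2823 of 12776, 4563 of 12888 and 2807 of 12782 were called in these settings and directions. The median log2 fold changes of the partners were -1.81, -0.71 and 0.88. The partners with the largest differences between goblet-enriched and Lgr5-enriched cells were Kntc1, of the checkpoint complex that brings dynein to kinetochores, at 7.84 ± 1.82 against 19.7 ± 5.03 TPM (limma adjusted p = 0.00734), and Dsn1, of the Mis12 complex, at 11.6 ± 2.12 against 26 ± 5.12 TPM (0.00502). At the crypt top they were Kntc1 again, at 2.62 ± 0.988 TPM (limma adjusted p = 0.000218), and its complex partner Zwilch, at 5.45 ± 2.31 against 29.1 ± 6.37 TPM (0.000382). Between goblet-enriched and enterocyte-enriched cells they were the checkpoint kinase Ttk, at 17.3 ± 3.18 against 4.97 ± 2.16 TPM (limma adjusted p = 0.00149), and the kinetochore scaffold Casc5, also called Knl1, at 9.65 ± 1.86 against 2.51 ± 0.756 TPM (0.000638).

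Of 38 genes of mitotic entry, spindle and exit, 36 were called lower in enterocyte-enriched and 22 in goblet-enriched than in Lgr5-enriched cells, with 0 higher (0 at an unadjusted p below 0.05 and 0 by limma-voom). Of all genes 37.6% and 23.6% were called lower in these comparisons. The count of 22 was 16 without Lgr5-enriched replicate 1 (2823 of all 12776 genes) and 34 with the replicate block (4563 of all 12888 genes). In goblet-enriched against enterocyte-enriched cells 31 of the 38 were called higher and 1 lower (28.2% and 15.9% of all genes). The 1 was Pttg1, or securin, which holds back the enzyme that separates sister chromosomes, at 22.3 ± 2.28 TPM in goblet-enriched and 39.4 ± 4.29 TPM in enterocyte-enriched cells (limma adjusted p = 0.00272). Fam64a stood at 17.8 ± 2.64 TPM in Lgr5-enriched, 6.98 ± 1.6 TPM in goblet-enriched and 1.97 ± 0.805 TPM in enterocyte-enriched cells (limma adjusted p = 0.00502 and 0.000173 against Lgr5-enriched cells). Mybl2, a factor that activates genes of late division, stood at 4.47 ± 2.4 TPM in goblet-enriched against 14.4 ± 6.98 TPM in Lgr5-enriched cells (limma adjusted p = 0.0196, lost under 4 alternatives). Ccna2, the cyclin of S phase and mitotic entry, stood at 19.3 ± 6.19 TPM in enterocyte-enriched against 112 ± 25.6 TPM in Lgr5-enriched cells (0.000192 by limma). Hmmr, a spindle assembly protein, and Bora, the cofactor with which Aurora A switches on Plk1, led the difference between goblet-enriched and enterocyte-enriched cells, at 29.4 ± 8.92 against 9.52 ± 3.05 TPM (limma adjusted p = 0.00259) and 45.2 ± 3.77 against 15.4 ± 3.5 TPM (0.000391). Bora stood at 40.7 ± 7.65 TPM in Lgr5-enriched cells (log2 fold change 0.16 for goblet-enriched against Lgr5-enriched cells, limma adjusted p = 0.553).

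S phase genes were read beside the division genes. All 35 were called lower in enterocyte-enriched (37.6% of all genes) and 33 in goblet-enriched (23.6%) than in Lgr5-enriched cells. In goblet-enriched against enterocyte-enriched cells 19 were called higher (28.2% of all genes). With the replicate block 32 were (4683 of 12888 genes), and without enterocyte-enriched replicate 1 the count was 8 (2807 of 12782 genes). Their median log2 fold change between goblet-enriched and Lgr5-enriched cells was -1.18, against -0.80 for the division genes, and their sum was 2621, 2061 and 3121 TPM in Lgr5-enriched, 891, 1001 and 1329 TPM in goblet-enriched and 491, 478 and 833 TPM in enterocyte-enriched replicates 1 to 3. The largest differences between goblet-enriched and Lgr5-enriched cells were in Mcm6 and Mcm3, subunits of the helicase that opens DNA for copying, at 63.3 ± 16.2 against 229 ± 54.9 TPM and 33.5 ± 12.5 against 117 ± 29.7 TPM (limma adjusted p = 0.00489 and 0.00834). At the crypt top they were Mcm6, at 31 ± 18.3 TPM, and Uhrf1, which copies DNA methylation marks, at 16.3 ± 11.4 against 108 ± 31.3 TPM (0.000339 and 0.0011 by limma). Between goblet-enriched and enterocyte-enriched cells they were Fen1, which trims lagging-strand fragments, at 36.3 ± 5.76 against 14.2 ± 3.55 TPM, and Uhrf1 (limma adjusted p = 0.00165 and 0.0446, the latter lost under 13 of 20 alternatives, among them leaving out enterocyte-enriched replicate 1 at 0.123).

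Because the division genes moved together, their promoters were searched for the short elements known to time late cell cycle genes. These are the cell cycle genes homology region, or CHR (TTTGAA or TTTAAA), the CCAAT box (CCAAT) and, for S phase genes, an E2F-like site (TTCCCGC or TTGGCGC), each on both strands, with no overlap between the letters of one motif and those of another required or excluded. The window ran from 250 bases before to 50 bases after each start listed in RefSeq on GRCm38.p6. Some of these starts lie inside the gene as placed by GENCODE, among them those of Kif2c and Kif14. Both of these windows hold a CHR match. Promoters were found for 33 of the 35 division genes (35 promoters). Of these 62.9% held a CHR, 77.1% a CCAAT box and 48.6% both, against 27.6%, 37.4% and 10.7% of all 32851 promoters. For the mitotic kinesins alone, 9 of 11 promoters held a CHR and 7 of 11 a CCAAT box. These 11 are not the 11 tested mitotic kinesins. They include Kif2b, at 0 TPM in every library and with a CCAAT box, and lack Kif20a, for which no promoter was found. Among transport and ciliary kinesins (16 of 21 genes, 19 promoters) 10.5% held a CHR, 36.8% a CCAAT box and 5.26% both. The E2F-like site was in 28.6% of division gene promoters, in 50% of S phase gene promoters (29 of 35 genes matched) and in 6.81% of all promoters. A match of letters is a description and not a bound site.

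Shown next are the 250 bases before the start of Plk1, the division gene that rose in goblet-enriched cells, of Kif11, Kif22 and Mki67, which did not, and of Kif1c, a transport kinesin. Each reads 5′ to 3′ on the strand of its gene, with the motifs in capitals. Plk1 lies on the plus strand at chr7:122159185-122159434 and holds 2 CHR and 1 CCAAT match, Kif11 on the plus strand at chr19:37376132-37376381 holds 1 of each, Kif22 on the minus strand at chr7:127042421-127042670 holds 2 of each, Mki67 on the minus strand at chr7:135716380-135716629 holds 2 CHR, 3 CCAAT and 1 E2F-like match, and Kif1c on the plus strand at chr11:70700298-70700547 holds none.
Plk1: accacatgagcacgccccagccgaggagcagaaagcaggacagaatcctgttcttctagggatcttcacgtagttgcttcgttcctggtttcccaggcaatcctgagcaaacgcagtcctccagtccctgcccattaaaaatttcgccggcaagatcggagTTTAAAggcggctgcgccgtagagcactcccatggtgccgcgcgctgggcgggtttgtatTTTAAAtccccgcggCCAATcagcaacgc
Kif11: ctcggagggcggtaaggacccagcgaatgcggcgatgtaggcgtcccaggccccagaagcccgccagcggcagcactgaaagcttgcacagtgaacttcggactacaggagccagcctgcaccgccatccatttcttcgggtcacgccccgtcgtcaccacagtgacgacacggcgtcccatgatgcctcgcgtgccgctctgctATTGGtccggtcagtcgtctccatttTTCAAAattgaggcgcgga
Kif22: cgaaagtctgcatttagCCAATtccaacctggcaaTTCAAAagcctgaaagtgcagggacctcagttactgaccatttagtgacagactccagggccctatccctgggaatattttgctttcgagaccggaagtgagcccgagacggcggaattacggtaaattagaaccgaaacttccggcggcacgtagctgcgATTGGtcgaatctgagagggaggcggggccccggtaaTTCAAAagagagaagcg
Mki67: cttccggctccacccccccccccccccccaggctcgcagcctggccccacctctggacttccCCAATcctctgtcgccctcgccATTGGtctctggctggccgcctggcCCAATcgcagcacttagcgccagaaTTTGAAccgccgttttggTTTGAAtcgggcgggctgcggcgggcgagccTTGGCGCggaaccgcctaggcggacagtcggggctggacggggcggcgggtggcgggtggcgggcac
Kif1c: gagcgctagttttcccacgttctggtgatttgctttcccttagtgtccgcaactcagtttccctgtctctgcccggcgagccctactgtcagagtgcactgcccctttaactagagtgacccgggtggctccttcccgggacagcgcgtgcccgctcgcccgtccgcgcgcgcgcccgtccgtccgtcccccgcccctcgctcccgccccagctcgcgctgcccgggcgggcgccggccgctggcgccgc

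The division genes shown are picked examples that all hold a CHR and a CCAAT box, where 48.6% of division gene promoters held both in the full window. Whether these elements bear on the level of Plk1 was not tested. The elements sit at different distances: the nearest CHR begins at position -29 in Plk1, -19 in Kif11, -17 in Kif22 and -98 in Mki67, where -1 is the last base before the start. Kif23, which was lower in both other populations than in Lgr5-enriched cells, holds 1 CCAAT box and no CHR in these 250 bases, and Kif20b holds none of the 3 elements there. The shares and counts above also cover the 50 bases after the start, which are not shown, so either gene may hold an element there.

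The transport and ciliary kinesins did not follow the division genes. Of 21 such genes 13 were tested. In enterocyte-enriched against Lgr5-enriched cells 4 were called higher (12.0% of all genes, and 1 of the 13 with Lgr5-enriched replicate 1 or, separately, enterocyte-enriched replicate 1 left out) and 2 lower (37.6%), with a median log2 fold change of -0.06 where the median of all genes was -0.35. In goblet-enriched against Lgr5-enriched cells none was called higher (10.7% of all genes) and 3 were lower (23.6% of all genes, a like share, and 5 of the 13 with the replicate block), with a median of -0.18 where the median of all genes was -0.26. With the block 4563 of all 12888 genes were lower there. In goblet-enriched against enterocyte-enriched cells 3 were lower (15.9% of all genes) and none higher (28.2%), with a median of -0.18 where the median of all genes was 0.20. In both comparisons with none higher, 0 were also higher at an unadjusted limma p below 0.05 and 0 by limma-voom on recovered reads. The first 2 of these medians changed sign with scaling and the third did not: with median-of-ratios scaling, which moved the median of all genes to 0.02, -0.05 and 0.04 in the order of the comparisons here, they were 0.33, 0.04 and -0.36. The sum of the 12 transport kinesins was 392, 440.4 and 421 TPM in Lgr5-enriched, 382, 365 and 317 TPM in goblet-enriched and 488, 446 and 423 TPM in enterocyte-enriched replicates 1 to 3. The goblet-enriched libraries lay below all others, and the other populations overlapped. The sum was within the spread of that of the mitotic kinesins in Lgr5-enriched cells and was several times that sum at the crypt top.

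Kif13b, a kinesin of membrane cargo, had the largest log2 fold change of TPM + 1 among the 4 called higher at the crypt top. It lies at chr14:64647265-64809617 and stood at 23.6, 40.5 and 33 TPM in Lgr5-enriched, 37.1, 43.5 and 34 TPM in goblet-enriched and 90.2, 72.9 and 68 TPM in enterocyte-enriched replicates 1 to 3. The enterocyte-enriched libraries lay above all others, and the crypt-bottom populations overlapped. Kif13b was 2.38-fold higher in enterocyte-enriched than in Lgr5-enriched cells (log2 fold change 1.25 with an SE of 0.20, limma adjusted p = 0.00115, and 0.0052 without enterocyte-enriched replicate 1). Kif1c, a vesicle motor, stood at 79.3, 116 and 101 TPM, 52.3, 87.3 and 63.5 TPM and 154, 150.3 and 139.7 TPM in the same order, again with the enterocyte-enriched libraries on top. It was 2.19-fold lower in goblet-enriched than in enterocyte-enriched cells (limma adjusted p = 0.00187, log2 fold change -1.15, SE 0.20). Against Lgr5-enriched cells its rise at the crypt top was 1.5-fold (0.0332 by limma), a call lost without Lgr5-enriched replicate 1 (0.103) or 3 (0.0712) and without any 1 enterocyte-enriched library. Its goblet-enriched libraries overlapped the Lgr5-enriched ones (limma adjusted p = 0.0586, and 0.0179 with the replicate block).

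Kif21a and Kif21b, a pair of related motors that pause microtubule growth, went opposite ways at the crypt top. Kif21a stood at 48.4, 55.3 and 56.9 TPM in Lgr5-enriched, 36.5, 33.3 and 29.7 TPM in goblet-enriched and 26.4, 29.8 and 25.3 TPM in enterocyte-enriched replicates 1 to 3. All 6 libraries of the other populations lay below the Lgr5-enriched ones (log2 fold change -0.68 and -0.95, limma adjusted p = 0.00504 and 0.000568 for goblet-enriched and enterocyte-enriched). Kif21b stood at 6.59, 9.93 and 9.52 TPM, 5.73, 10.8 and 11.5 TPM and 17.1, 14.5 and 17 TPM in the same order, highest in the 3 enterocyte-enriched libraries. Its rise over Lgr5-enriched cells was 1.87-fold (limma adjusted p = 0.0231), and the p was 0.0717 without Lgr5-enriched replicate 1 and 0.0642 without enterocyte-enriched replicate 1. Kif21b was also called lower in goblet-enriched than in enterocyte-enriched cells (limma adjusted p = 0.035, and 0.0904 without enterocyte-enriched replicate 1). In Lgr5-enriched cells the mean level of Kif21a was 53.5 ± 4.54 TPM and that of Kif21b 8.68 ± 1.82 TPM.

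Kif5b, the heavy chain of conventional kinesin, was the most abundant transport kinesin in Lgr5-enriched and goblet-enriched cells and was called in no comparison. It stood at 142, 105 and 106 TPM in Lgr5-enriched, 148, 88.4 and 93.3 TPM in goblet-enriched and 99.6, 81.7 and 83.8 TPM in enterocyte-enriched replicates 1 to 3, with replicate 1 the highest in each population. With the replicate block the difference at the crypt top passed the threshold (log2 fold change -0.40, limma adjusted p = 0.145 without and 0.0151 with the block). Kif13a, a motor of recycling endosomes, stood at 60.2 ± 9.02 TPM in Lgr5-enriched, 60.0 ± 5.41 TPM in goblet-enriched and 52.4 ± 1.34 TPM in enterocyte-enriched cells, and Kif1b, a motor of mitochondria and vesicles, at 18.8 ± 0.839, 16 ± 3.43 and 18.1 ± 1.97 TPM. Neither was called in any comparison. Kif16b, which moves early endosomes, stood at 26.5 ± 3.28, 19 ± 1.5 and 23.4 ± 3.15 TPM. It was called lower in goblet-enriched than in Lgr5-enriched cells (limma adjusted p = 0.0493), and 12 of 20 alternatives ended that call.

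**Figure D4:**
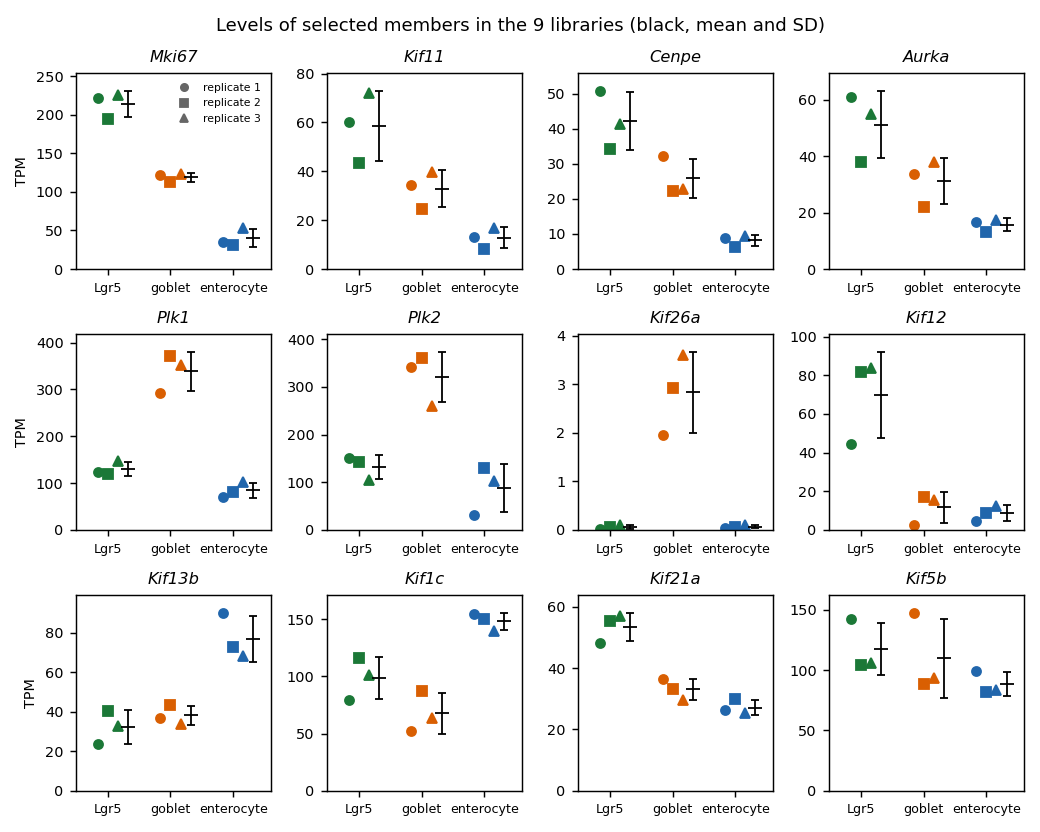
TPM of 12 members in the 9 libraries (circle, square and triangle for replicates 1, 2 and 3; black, mean and SD of a population), each panel starting at 0 on a linear axis. Mki67, Kif11, Cenpe and Aurka step down from left to right, Plk1, Plk2 and Kif26a are highest in the goblet-enriched libraries, Kif12 and Kif21a in the Lgr5-enriched ones and Kif13b and Kif1c in the enterocyte-enriched ones, and Kif5b overlaps between the crypt-bottom populations.

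Of 9 ciliary kinesins 5 were tested. Kif3a and Kif3b, the motor subunits of kinesin-2 that build cilia and also carry other cargo, stood at 5.41 ± 0.365 and 28.6 ± 3.82 TPM in Lgr5-enriched cells. They were at 3.53 ± 0.764 and 25.3 ± 4.58 TPM in goblet-enriched and 3.79 ± 0.411 and 31.9 ± 5.17 TPM in enterocyte-enriched cells, with no call in any comparison. With the replicate block Kif3a was lower in goblet-enriched than in Lgr5-enriched cells (0.0326 by limma) and Kif3b lower in goblet-enriched than in enterocyte-enriched cells (0.0279). Kif24, which restrains cilium growth at the mother centriole, moved with the division genes. It stood at 6.45, 6.08 and 9.89 TPM in Lgr5-enriched, 2.85, 3.25 and 3.8 TPM in goblet-enriched and 2.3, 1.89 and 2.93 TPM in enterocyte-enriched replicates 1 to 3. Both other populations lay below the Lgr5-enriched libraries (log2 fold change -0.96 and -1.31, limma adjusted p = 0.0113 and 0.00144). Kif9 and Kif19a, of motile cilia, were near 1 TPM: Kif9 stood at 0.329, 0.709 and 0.509 TPM in Lgr5-enriched, 0.402, 1.63 and 1.05 TPM in goblet-enriched and 3.1, 0.955 and 1.65 TPM in enterocyte-enriched replicates. Its call at the crypt top (limma adjusted p = 0.0495) was lost under 11 alternatives, among them the replicate block (0.0619) and leaving out enterocyte-enriched replicate 1 (0.169) or Lgr5-enriched replicate 1 (0.121). Kif19a stood at 0.823 ± 0.399, 1.57 ± 1.24 and 1.08 ± 0.27 TPM, and its goblet-enriched mean was 0.868 TPM without replicate 2.

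Of the kinesins in neither set, Kif26a and Kif12 had the most restricted patterns. Kif26a encodes an unusual kinesin without motor activity that is known from the development of enteric neurons, and lies at chr12:112146208-112181747. It stood at 1.95, 2.93 and 3.61 TPM in goblet-enriched replicates 1 to 3, from 77, 107 and 129 reads. In Lgr5-enriched replicates it had 2, 2 and 4 reads and in enterocyte-enriched replicates 1, 3 and 4 reads, 0.0277 to 0.103 TPM over the 6 libraries. The log2 fold change of TPM + 1 was 1.83 against Lgr5-enriched cells (SE 0.22, limma adjusted p = 0.000411) and 1.82 against enterocyte-enriched cells (0.00026), a scale that compresses differences this low. Kif26a passed the filter on low values only through its goblet-enriched libraries, so that a difference was built into its being tested.

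Kif12, a kinesin known from the epithelium of kidney and bile duct (chr4:63165630-63172131), stood at 44.3, 81.6 and 83.8 TPM in Lgr5-enriched, 2.65, 17.2 and 15.4 TPM in goblet-enriched and 4.44, 8.57 and 12.6 TPM in enterocyte-enriched replicates 1 to 3. Replicate 1 was the lowest in each population, and the Lgr5-enriched libraries lay above all others. Kif12 was 5.95-fold lower in goblet-enriched (limma adjusted p = 0.00836, log2 fold change -2.73, SE 0.60) and 8.18-fold lower in enterocyte-enriched cells (limma adjusted p = 0.00353, log2 fold change -2.94, SE 0.60), larger differences than those of any mitotic kinesin tested. Both calls held under all 20 alternatives. Kif2a, a microtubule-shortening kinesin of spindle poles and neurons, stood at 45.1, 44.3 and 41.5 TPM, 27.5, 22.9 and 19.7 TPM and 29, 27.6 and 29.1 TPM in Lgr5-enriched, goblet-enriched and enterocyte-enriched replicates. It was lowest in the goblet-enriched libraries, 1.87-fold below the Lgr5-enriched ones (limma adjusted p = 0.00181). Its call at the crypt top (0.00712 by limma) was lost with median-of-ratios scaling (0.342) and quantile normalization (0.172).

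The stress-responsive polo-like kinases differed from each other. Plk2, like Plk1, was highest in the goblet-enriched libraries, and Plk3 was not. Plk2, which responds to stress and growth signals, stood at 149.8, 143 and 104 TPM in Lgr5-enriched, 341, 359.8 and 259.9 TPM in goblet-enriched and 31.5, 129 and 103 TPM in enterocyte-enriched replicates 1 to 3. The goblet-enriched libraries lay above all others, and enterocyte-enriched replicate 1 lay far below the other libraries of its population. Plk2 was 3.65-fold higher in goblet-enriched than in enterocyte-enriched cells (limma adjusted p = 0.00532, log2 fold change 2.07, SE 0.44). Against Lgr5-enriched cells the 2.42-fold difference missed the threshold (limma adjusted p = 0.0515) and passed it with the replicate block (0.0392) and without enterocyte-enriched replicate 1 (0.00187), which enters this value only through the shared estimate of the spread. Plk3, also a stress-responsive kinase, stood at 156, 262 and 210.4 TPM, 143, 176 and 159 TPM and 208, 352 and 316 TPM in the same order. It was lower in goblet-enriched than in enterocyte-enriched cells (log2 fold change -0.84, limma adjusted p = 0.0177) and replicate 1 was the lowest in each population. The call was lost without goblet-enriched replicate 1 (0.0531) and without enterocyte-enriched replicate 2 (0.0631) or 3 (0.0556). With the replicate block it was also higher at the crypt top and lower in goblet-enriched cells than in Lgr5-enriched cells (0.01 and 0.0345 by limma, against 0.123 and 0.249 without it).

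The 3 remaining Cenp genes belong to neither kinetochore class. Cenpb, which binds a short box in centromeric satellite DNA, stood at 192 ± 47.2 TPM in Lgr5-enriched, 143 ± 40.4 TPM in goblet-enriched and 185 ± 15.3 TPM in enterocyte-enriched cells. It was called in no comparison, unlike the inner network, and with the replicate block it was lower in goblet-enriched cells than in each of the others (limma adjusted p = 0.0308 and 0.032). Cenpj, which sets the length of centrioles, stood at 6.97 ± 2.16, 9.69 ± 3.94 and 5.49 ± 0.552 TPM with no call (0.0144 for goblet-enriched against enterocyte-enriched cells with the replicate block). Cenpv, a protein of the spindle midzone, stood at 154, 108 and 142 TPM in Lgr5-enriched, 68.7, 69.3 and 85 TPM in goblet-enriched and 46.9, 58.2 and 65.2 TPM in enterocyte-enriched replicates 1 to 3. Its 3 populations did not overlap, and it was lower in both others than in Lgr5-enriched cells (log2 fold change -0.84 and -1.23, limma adjusted p = 0.00673 and 0.000646).

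The 10 members not tested were all kinesins: Kif1a, Kif3c, Kif5a and Kif5c, transport motors best known from neurons, the ciliary kinesins Kif6, Kif7, Kif17 and Kif27, and Kif2b and Kif26b. None exceeded 1.27 TPM or 48 reads in any library. The broadly expressed Kif5b and Kif1c were thus measured at levels per length far above their neuronal relatives Kif5a, Kif5c and Kif1a.

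Other cell types left small traces beside these results. Summed leukocyte markers reached 2.99 to 17.2 TPM in Lgr5-enriched, 4.3 to 16.5 TPM in goblet-enriched and 15.8 to 242 TPM in enterocyte-enriched libraries. Most of that was Lyz2, at up to 232 TPM, while the pan-leukocyte gene Ptprc was at or below 1.2 TPM in every library. Summed stromal and endothelial markers ranged over 8.96 to 9.33, 1.03 to 6.16 and 6.14 to 8.88 TPM, summed enteroendocrine markers over 157 to 298, 13.1 to 79.5 and 149 to 239.7 TPM, and summed tuft cell markers over 1.93 to 4.66, 7.94 to 49.3 and 2.6 to 5.57 TPM in the same order. In the enterocyte-enriched population, where the division genes were lowest, leukocyte markers summed to 242, 139 and 15.8 TPM in replicates 1 to 3. The last value lay within the range of the other populations. The part of other cell types in the results was not tested.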

How the data were processed

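Per the labels' protocols, poly-A RNA of sorted cells was made into stranded libraries and sequenced on either of a pair of instruments, without stating which library went to which. Deposited was a single table of log2 values: the authors' numbers are log2(TPM) at 1 TPM and above and TPM minus 1 below it, as the back-transformed columns each sum to 1000000, and 0 columns were left unused. Cufflinks and mm10 are named in the submitters' processing notes, and aligner, annotation and strand use are not given here, so reads of overlapping genes and close paralogs (Kif5 and Kif21 pairs) may be shared. Whole reads were recovered for 99.95% of genes (tolerance 1e-06 of a read, lower bounds).

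For tests, limma 3.58.1 (R 4.3.3) was fitted to log2(TPM + 1) (trend, 1 mean per population over 9 libraries, 6 residual and 3.21 prior degrees of freedom, two-sided), over the 12888 genes that reached 1 TPM in 3 or more libraries. The fit was tested on simulated data. Same-numbered libraries of different populations deviated together (Pearson's r across genes 0.194 to 0.601 over all 9 pairs, -0.52 to 0.166 over the 18 others). Deviations were taken from the mean of each population, so positive values in the 9 pairs pull the 18 others down. The 18 are thus no independent contrast. Blocked values are given where they change a member's call. The pairing comes from these values and not from the labels, and the Xist level of enterocyte-enriched replicate 1 differs from those of its number-mates. Alternatives were the pseudocount, the filter, scaling, array weights, the samples fitted, the block and each library left out. Leaving out replicate 1 of all populations and limma-voom on recovered reads were chosen after seeing the data. The members and lists were chosen with earlier results of these data known. Every member with a mean of at least 1 TPM in a population is named with its values, as are the 2 called genes of each partner list with the largest difference in each direction. Gene positions are from GENCODE vM21 and promoters from RefSeq GRCm38.p6, and all 65 members matched GENCODE.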

Additional observations from a re-analysis of the deposited data

How the results depend on the processing

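Over 165 pairs of tested member and comparison, 106 were called, 74 of these under all 20 alternatives, and no called direction reversed. Of the 59 not called, 31 were called under at least 1 alternative. The count of division genes lower in goblet-enriched than in Lgr5-enriched cells (18) was 10 with no filter on low values, 7 with median-of-ratios scaling, 7 with quantile normalization, 31 with array weights, 30 with the replicate block and 6 without replicate 1 of all populations, and ranged from 5 to 22 with 1 library left out. The calls over all genes moved as well. In the order of the named settings, 2754 of 18396, then 1549, 1941, 5661 and 4563 of 12888, and 4135 of 12512 genes were called lower. Array weights called 1 transport or ciliary kinesin higher in goblet-enriched than in Lgr5-enriched cells (0) and 5 lower in enterocyte-enriched than in Lgr5-enriched cells (2, and 4 without replicate 1 of all populations). Of all 12888 genes array weights called 1950 higher in the first comparison and 6329 lower in the second. Without replicate 1 of all populations 5379 of 12512 were lower in the second. Of these kinesins the replicate block called 5 lower in goblet-enriched than in Lgr5-enriched cells (3), beside 4563 of all 12888 genes. The count higher at the crypt top (4) was 2 without replicate 1 of all populations and ranged from 1 to 4 with 1 library left out. The cause was not tested. The block moved no other of these counts by over 1.5 times, and the division counts in the other comparisons stayed within that range under every alternative. The median gene lay at -0.26 and -0.35 in goblet-enriched and enterocyte-enriched against Lgr5-enriched cells. Depth limits values below about 1 TPM, such as those of Kif9, Kif19a and Kif26a outside the goblet-enriched libraries.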

Other observations

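Kinesins of the C-terminal type, which walk the other way along microtubules and which the naming rule does not reach, were split by population as well. Kifc3, known from the apical side of epithelial cells, stood at 11.8 ± 3.97 TPM in Lgr5-enriched, 2.48 ± 1.39 TPM in goblet-enriched and 27.9 ± 2.73 TPM in enterocyte-enriched cells (limma adjusted p = 0.00345 for goblet-enriched and 0.0163 for enterocyte-enriched against Lgr5-enriched cells, the latter 0.0522 without Lgr5-enriched replicate 1, and 0.000172 between goblet-enriched and enterocyte-enriched cells). Kifc2 stood at 6.89 ± 3.01, 7.78 ± 2.65 and 20.2 ± 1.57 TPM and was called higher in enterocyte-enriched than in Lgr5-enriched cells (0.00498 by limma) and lower in goblet-enriched than in enterocyte-enriched cells (0.0113).

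Light chains and adaptors that join kinesins to cargo made up a list of 12 tested genes with Kifc2 and Kifc3. In goblet-enriched against Lgr5-enriched cells 1 was called higher and 1 lower (10.7% and 23.6% of all genes), in enterocyte-enriched against Lgr5-enriched cells 4 higher and 2 lower (12.0% and 37.6%), and in goblet-enriched against enterocyte-enriched cells 2 higher and 4 lower (28.2% and 15.9%). The light chain Klc1 stood at 71.1 ± 9.78 TPM in goblet-enriched against 45.9 ± 9.69 TPM in Lgr5-enriched cells (limma adjusted p = 0.0314, lost under 4 alternatives, among them leaving out Lgr5-enriched replicate 1 at 0.0815). Klc2 stood at 24 ± 3.42 TPM in goblet-enriched against 11.3 ± 3.44 TPM in enterocyte-enriched cells (0.00568 by limma), and Klc3 at 2.19 ± 0.851 against 0.478 ± 0.326 TPM (0.0222, lost under 3 alternatives, among them leaving out enterocyte-enriched replicate 1 at 0.078). Kifap3, the cargo subunit of kinesin-2, and Trak2, the mitochondrial adaptor, stood at 10.9 ± 0.427 and 20.7 ± 4.7 TPM in enterocyte-enriched against 16.3 ± 1.06 and 34.7 ± 3 TPM in Lgr5-enriched cells (limma adjusted p = 0.0101 and 0.014), and both calls were lost with median-of-ratios scaling (0.346 and 0.212), that of Trak2 also without enterocyte-enriched replicate 1 (0.0504).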
